A study of Mus musculus with 12 samples.

Results

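The promoters of all 20807 autosomal protein-coding genes of the mouse annotation, of 21951 protein-coding genes in all, were followed from leptonema/zygonema (LZ) to pachynema (P) of meiotic prophase I. Nascent transcription had been measured by leChRO-seq, a run-on assay in which engaged RNA polymerase on isolated chromatin adds biotin-labelled nucleotides, in cells enriched by size and density (STAPUT) from testes of adult wild-type mice. The study's methods give the C57Bl/6J or DBA/2J background for its mice and do not tie either to a library. Each substage had 4 libraries, and 1 list of dREG peaks was deposited for each substage from its merged libraries. dREG is a machine-learning caller that marks places where run-on reads carry the pattern of transcription initiation and gives each peak a score. The LZ list held 68876 autosomal peaks and the P list 66209. A diplonema (D) list of 37376 autosomal peaks was read beside them. Each gene took the highest score among peaks whose edge lay under 1000 bp from any of its annotated transcription start sites (TSSs), and a gene with no such peak had no call. Within each list the scores of the called genes were turned into percentile ranks, from 0 for the lowest to 100 for the highest score. The change of a gene is its P rank minus its LZ rank, in percentile points. A gene is said to have risen or fallen when its rank changed by 25 points or more, a fixed size and not a test. With 1 pooled list a substage there is no spread between replicates, and no difference below was tested.

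In prophase I, homologous chromosomes pair and recombine. Programmed breaks are made and strand exchange begins in leptonema and zygonema, and synapsis is complete in pachynema, when crossovers are designated. Spermatocytes also transcribe many genes whose products are used only after meiosis, in spermatids, and the factors A-MYB (Mybl1) and RFX2 are known for activating promoters of such genes. The promoters of vertebrate genes fall broadly into CpG islands, which most widely expressed genes have, and CpG-poor promoters, which are common among tissue-restricted genes.

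A promoter call was made for 12639 genes in LZ (60.7%) and 12734 in P (61.2%), and 11989 genes were called in both. Of all 20807 genes, 745 gained a call in P (3.58%) and 650 lost one (3.12%). The best score of a called gene had a median of 1.05 in LZ and 1.03 in P. The best peak covered a TSS in 82.7% of LZ calls and 81.4% of P calls. About 19.4% of called genes in either list shared their best peak with another protein-coding gene, so such genes have a single value between them. The markers of prophase I spermatocytes (Sycp1, Sycp2, Sycp3, Dmc1, Spo11, Prdm9, Hormad1, Mybl1 and Brdt) were called in both lists, 9 of 9, with a median rank of 61.8 in LZ and 77.8 in P. Their summed score was 10.46 in LZ and 10.36 in P. Dmc1, Spo11 and Brdt ranked lower in P and the others higher.

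Markers of somatic testis cells were mostly without a call or at low rank, while most markers of spermatogonia and spermatids were called. Over all genes, 60.7% were called in LZ and 61.2% in P. For so few markers, the counts of spermatogonia, of spermatids and, in P, of Sertoli cells were near these shares. None of the 4 macrophage markers had a call in either list. Of 6 Leydig markers, 0 were called in LZ and 2 in P, Cyp11a1 at rank 6.90 and Lhcgr at 0.63, while Star, Cyp17a1, Hsd3b1 and Insl3 had no call. Of 8 Sertoli markers, 3 were called in LZ and 5 in P, their summed score was 1.98 in LZ and 3.35 in P, and Gata4 was the highest at rank 36.5 and 41.0. Cldn11 and Wt1 were the Sertoli markers gained in P, at ranks 22.5 and 6.54, and Amh, Amhr2 and Fshr had no call. Of 10 spermatogonial markers, 7 were called in LZ and 8 in P, with median ranks of 46.9 and 39.9 and summed scores of 6.49 and 6.78. Gfra1 and Neurog3 had no call, Sall4 was the highest in LZ at 51.0 and Id4 in P at 69.5. Of 6 spermatid markers, 5 were called in both lists, with a median rank of 41.6 in LZ and 42.0 in P and summed scores of 4.84 and 4.58. The highest was Acrv1, at 92.9 in both lists. Tnp2 had no call, and Prm1 and Prm2 shared a promoter peak at rank 19.4 in LZ and 14.6 in P. The study describes elongated spermatids as the main contaminant of each fraction and germ cells of other stages as further possible ones. The part of such cells in the changes below was not tested.

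The ranks of the lists were alike for many promoters and moved for others. Among the 11989 genes called in both lists the ranks had a Spearman rho of 0.800, given as a description over genes, which are not independent replicates. The change was under 10 points for 6045 genes (50.4%), the median absolute change was 9.88 points, and the quartiles of the change were -9.48 and 10.3. Of the lowest LZ quintile, 64.0% were in the lowest quintile in P, and of the highest, 61.8% were in the highest. Of the 3 quintiles between them, 45.6%, 38.9% and 41.4% were in the same quintile in P. A rise of 25 points or more was seen for 867 genes (7.23%) and a fall for 857 (7.15%). Only 79 genes rose and 95 fell by 50 points or more. The 26 genes less than 0.3 points past the limit for a rise had median ranks of 35.4 in LZ and 60.5 in P, and the 18 less than 0.3 points short of it had 53.6 and 78.4. The 25 genes just past the limit for a fall had 73.7 and 48.6, and the 17 just short had 61.9 and 37.2.

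**Figure D1:**
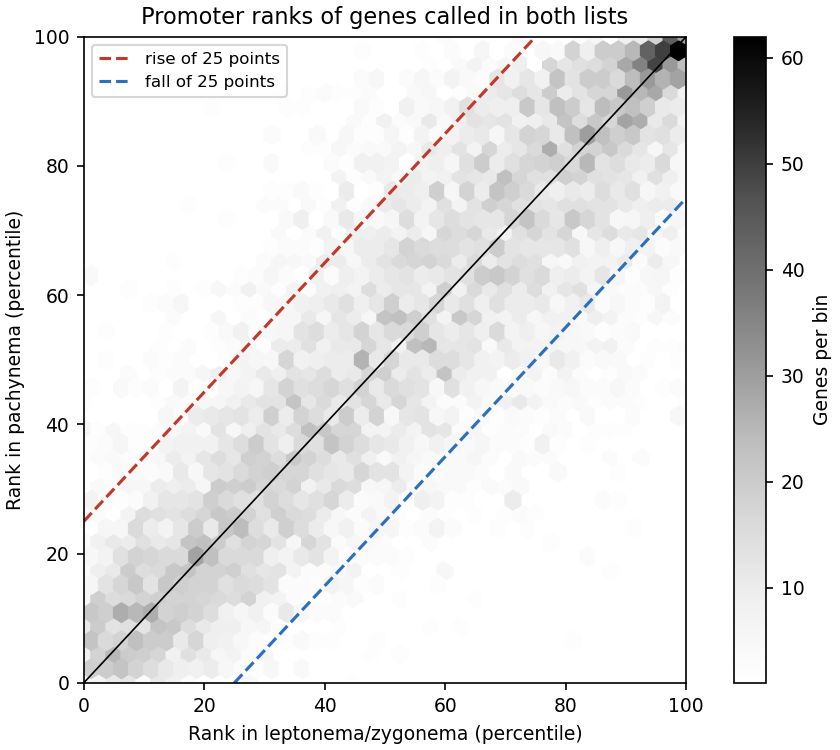
Promoter ranks of the 11989 genes called in both lists. The x axis is the percentile rank in leptonema/zygonema and the y axis that in pachynema, shading gives genes per hexagonal bin, the solid line marks equal ranks and the dashed lines a rise or fall of 25 points. Most genes lie between the dashed lines, with 867 on or above the upper and 857 on or below the lower.

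The largest rises belonged to genes of varied function. Slc12a8, a member of a cation chloride cotransporter family, had the lowest score of any called gene in LZ (0.261) and rank 98.4 in P (score 1.36). Its P peak (chr16:33614591-33615400 on mm10) lay 990 bp from a TSS and 721 bp from the LZ peak, there was no D call, and with a limit of 2000 bp the change was -1.53 points, so this rise rests on the distance limit. Pom121l12, a gene of the POM121 family, lies at chr11:14599276-14600314 on the plus strand, with a single annotated TSS, and a P peak covered that TSS (chr11:14598891-14599570) with a score of 1.31 and rank 94.2. In LZ its best peak lay 175 bp away with a score of 0.37 and rank 3.94, and in D its rank was 95.6. Prok2, a secreted prokineticin, moved from rank 5.99 in LZ to 84.1 in P and 66.1 in D. Spint2, a membrane serine protease inhibitor, moved from 7.43 to 81.1 and 63.3 in D. Pebp4, a phosphatidylethanolamine-binding protein, moved from 26.8 to 95.4 over the same promoter, with 99.5 in D. Amer3, of the APC membrane recruitment family, moved from 1.12 to 69.9. The transcription factor genes Sall3 and Foxp1 also stand among the 10. Sall3 moved from 0.82 to 86.4, yet its peaks were 531 bp apart and the change was -0.39 points when a peak had to cover the TSS. The Foxp1 peaks were 492081 bp apart, at 2 different promoters of the gene, so its move from 19.0 to 88.6 compares those promoters. Ankar (28.3 to 99.1) and Slc44a2, a choline transporter-like gene (29.2 to 96.8), complete the set. With the scores of all of a gene's peaks summed, Ankar changed by -7.39 points and Slc44a2 by -3.77.

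Among the falls, Mycbp, which encodes a MYC-binding protein, went from rank 93.8 in LZ (score 1.32) to 7.84 in P (score 0.432) and had no D call, although the peaks of both lists covered its TSS (chr4:123904401-123905230 in LZ). Fabp12, a fatty acid-binding protein gene, fell from 95.1 to 15.2 and stood at 6.71 in D. Plac8l1 fell from 94.2 to 20.5, Rexo1 from 80.2 to 6.82, and Dmwd from 89.8 to 13.8. The Dmwd peaks were 421 bp apart, and the P peak lay 523 bp from a TSS. Hp1bp3, a linker-histone-like heterochromatin protein, fell from 98.0 to 25.5. Man2c1, a cytosolic alpha-mannosidase, fell from 99.5 to 29.6. Dvl1, a Wnt signalling adaptor, fell from 84.9 to 14.9. Eif2b4, a subunit of the exchange factor of translation initiation, shares its divergent promoter with the sorting nexin gene Snx17, and the single peak of the pair fell from 87.9 to 18.2, with no D call. The LZ peak of Ppp1r27 was the best peak of its neighbour Mcrip1 too, so its fall from 99.3 to 25.6 is not of a promoter of its own. In D, 7 of these 10 items had a call, between rank 3.03 for Dmwd and 33.3 for Hp1bp3.

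**Figure D2:**
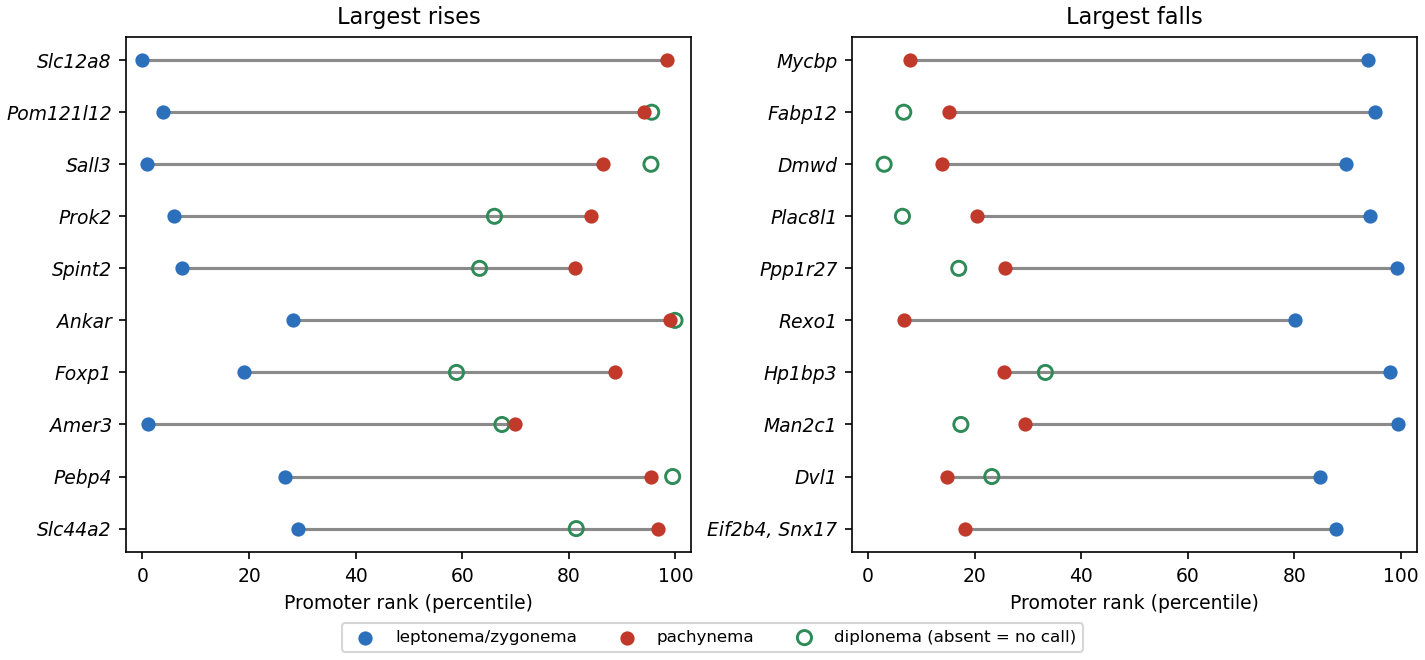
The 10 largest rises (left) and the 10 largest falls (right) among named genes called in both lists. The x axis is the percentile rank; blue points are leptonema/zygonema, red points pachynema and open green points diplonema, which is absent where there was no call. Of the rising genes, 9 had a diplonema call at rank 58.9 or higher, and of the falling items 7 had one at 33.3 or lower.

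Calls that were gained or lost were mostly weak. The gained genes had a median P rank of 7.23, and 62.3% were under rank 10. The lost genes had a median LZ rank of 7.22, and 61.5% were under rank 10. Only 6 gained and 12 lost genes stood at rank 50 or above in the list that called them. For 76.4% of gained genes there was no LZ peak under 5000 bp from a TSS, and for 72.5% of lost genes no P peak, while 77 gained and 87 lost genes had a peak of the other list from 1000 to under 2000 bp. The strongest gained call was Slc13a5, a plasma membrane citrate transporter, with a P score of 1.17 (rank 71.5), a D rank of 81.9 and the nearest LZ peak 13929 bp away. It was followed by Prrt2, a presynaptic protein gene (69.2), the homeobox gene Pitx3 (61.0) and Sept12, a septin of the sperm annulus (59.7). Prrt2 and Pitx3 had LZ peaks 1905 and 1389 bp from a TSS, so these gains end with a limit of 2000 bp. Slc22a16, a carnitine transporter of the testis, stood at 54.1 in P and 60.4 in D, with the nearest LZ peak 24706 bp away. Among the lost calls, Spatc1l, related to the spermatogenesis and centriole gene Spatc1, went from a score of 1.36 (rank 96.6) at chr10:76561751-76562710 to no call, with the nearest P peak 7542 bp away. Dnajc9, a histone cochaperone linked to replication, was lost from rank 71.7, with the nearest P peak 15351 bp away. Kbtbd4 and Ndufs3, which share a promoter peak, were lost from 68.3, Selenov from 62.1, Dhps, which makes hypusine for eIF5A, from 60.1, and Ndufs7 from 47.1. The losses of Pcdha2 and Tmc4 turned on the distance limit, since their nearest P peaks lay at 1007 and 1033 bp, and Col15a1 had one at 1677 bp.

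The D list was not used to choose these classes. A D call was held by 303 of 745 gained genes (40.7%) and by 59 of 650 lost genes (9.08%), beside 10892 of all 20807 genes (52.35%). Among genes at rank 25 or above in their own list, 61 of 72 gained and 8 of 56 lost genes had a D call (84.7% and 14.3%). Of the genes that rose, 97.0% had a D call with a median D rank of 67.1. Of the genes that fell, 80.05% had one, with a median of 31.05. The remaining genes called in both lists had 86.8% and 52.5. The D ranks stood nearer to the P ranks of these classes (medians 73.3 for rises and 39.3 for falls) than to their LZ ranks (37.0 and 77.3). Where the P rank was held between 50 and 75, the median D rank was 58.6 for genes with a change of 10 points or more upward, 53.8 for those with as much downward and 62.1 for those with less. Between P ranks 25 and 50 these medians were 33.7, 30.55 and 33.3.

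**Figure D3:**
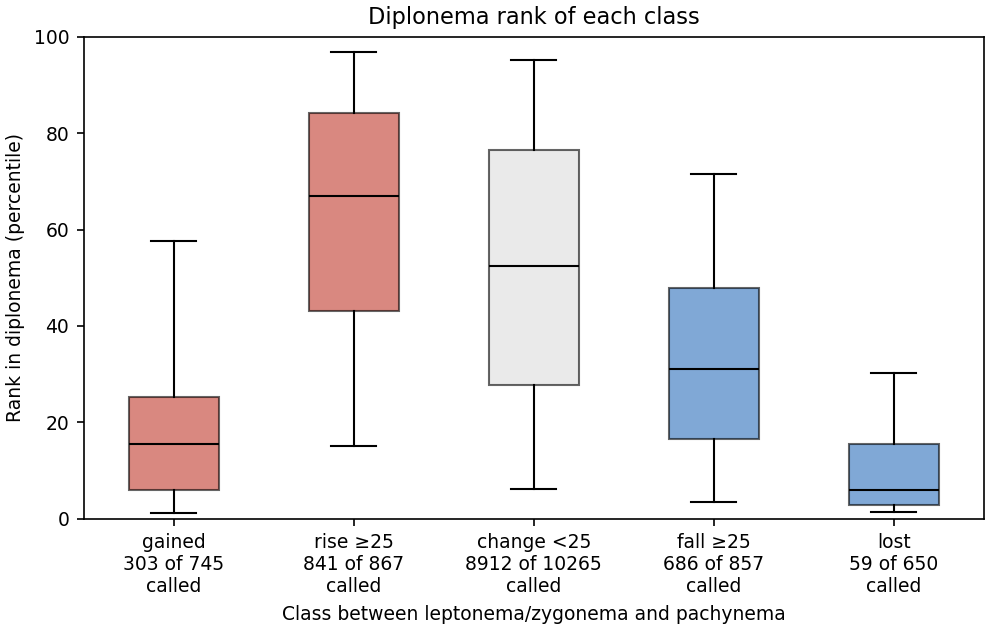
Diplonema rank (y axis, percentile) of genes by class between leptonema/zygonema and pachynema (x axis), for the genes with a diplonema call, whose number is written under each box with the size of the class. Boxes span the quartiles with the median as a line and whiskers reach the 5th and 95th percentiles; the medians were 15.6 (gained), 67.1 (rise), 52.5 (change under 25 points), 31.05 (fall) and 6.06 (lost).

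The promoter sequences of the classes differed in CpG content. The window from 250 bases before the TSS to 50 from the TSS on was read from the GRCm38 reference. For rises and gained genes it lay at the TSS nearest the best P peak. For falls, lost genes and genes with changes under 25 points it lay at the TSS nearest the best LZ peak. Genes with no call in LZ or P took the outermost TSS. The observed number of CpG dinucleotides was divided by that expected from the C and G content. The placing of the window thus differed by class, and its part in the contrasts below was not tested. Among genes called in both lists the median of this ratio was 0.784, and it was 0.776 for rises and 0.724 for falls. It was 0.545 for gained and 0.549 for lost genes and 0.202 for the 7423 genes with no call in LZ or P. The best peak of risen genes had a median width of 550 bp in LZ and 670 bp in P, and that of fallen genes 640 bp and 600.0 bp. The 1320 genes with a ratio under 0.3, here called CpG-poor, included 214 falls and 49 rises, which is 16.2% and 3.71% of them. The 8753 genes at 0.6 or more included 519 falls and 641 rises (5.93% and 7.32%). The 1916 genes from 0.3 to under 0.6 included 124 falls and 177 rises (6.47% and 9.24%). The median change was -5.79 points for CpG-poor genes and 1.23 for those at 0.6 or more. The CpG-poor genes had a median LZ rank of 51.6 against 55.6 for those at 0.6 or more, a median P rank of 40.2 against 57.4 and a median D rank of 39.9 against 56.0. At LZ rank 75 or above stood 422 of the 1320 CpG-poor genes and 2392 of the 8753 at 0.6 or more, so the classes are also compared within bins of LZ rank. Between LZ ranks 50 and 75, 74 of 258 CpG-poor genes fell (28.7%) and 165 of 2546 genes at 0.6 or more (6.48%), and 3 and 184 rose. From LZ rank 75 up, 28.0% and 11.8% fell. Under LZ rank 25, 10.2% of CpG-poor genes and 10.3% of those at 0.6 or more rose. With the scores of all peaks of a gene summed, CpG-poor genes had 125 falls and 67 rises, ranked among all peaks 115 and 71, and with only the outermost TSS 132 and 45. The CpG class of each gene was kept as above for these counts. With the outermost TSS the ranked promoter can thus differ from the one classed.

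**Figure D4:**
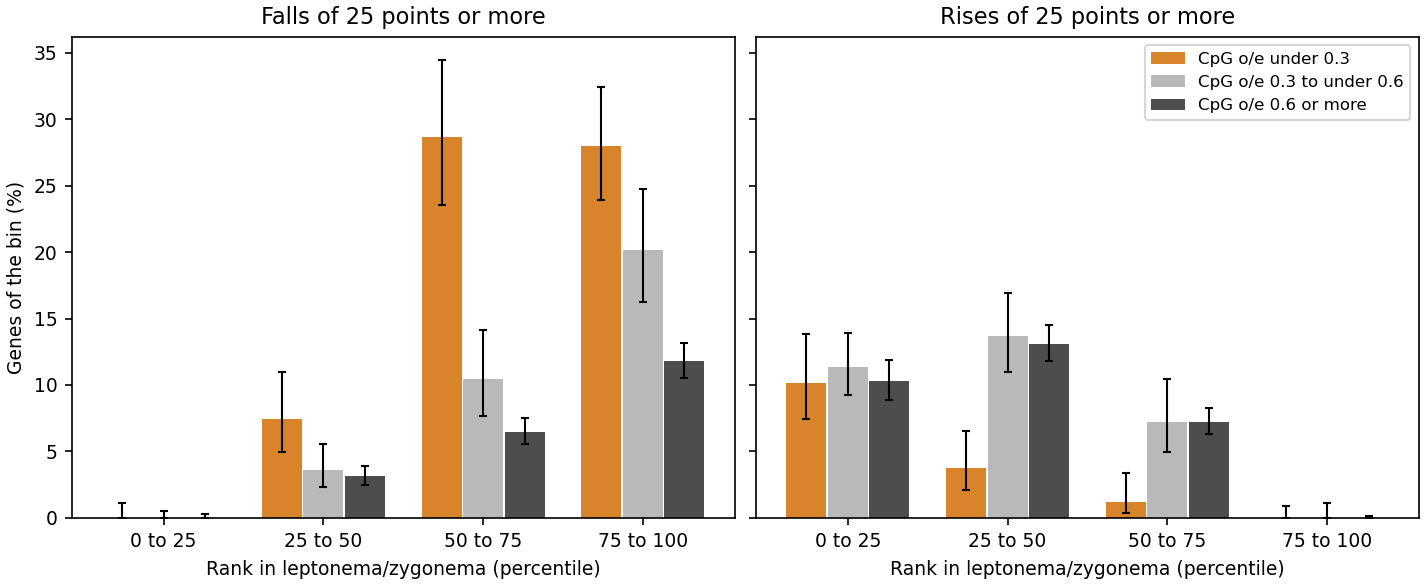
Share of genes (y axis, percent) that fell (left) or rose (right) by 25 points or more, in bins of leptonema/zygonema rank (x axis), for 3 classes of promoter by CpG observed over expected (o/e). Bars are shares, and lines are Wilson 95% intervals that cover the counting of genes only; no gene under rank 25 can fall and none above 75 can rise by this much. In the bin from 50 to 75, 28.7% of genes under 0.3 fell against 6.48% of those at 0.6 or more.

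Upstream sequences from the ends of the range of CpG content are given for a fallen and a risen gene, and they do not stand for their classes: 60.6% of fallen promoters were at a ratio of 0.6 or more, the fallen gene Ccne1 held 27 CpG in its 200 bases, and the risen gene Catsperb held 0. Spam1, the sperm surface hyaluronidase (chr6:24790988-24791187, plus strand, fall from 98.0 to 59.3), held no CpG in the 200 bases before its TSS, while Slc2a3, the glucose transporter GLUT3 (chr6:122801641-122801840, minus strand, rise from 34.7 to 79.7), held 30. Capitals mark CpG, and both run 5′ to 3′ on the strand of the gene.
Spam1: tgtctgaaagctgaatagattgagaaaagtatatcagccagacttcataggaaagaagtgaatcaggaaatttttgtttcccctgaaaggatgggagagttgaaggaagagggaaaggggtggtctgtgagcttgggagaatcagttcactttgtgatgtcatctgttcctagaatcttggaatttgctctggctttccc
Slc2a3: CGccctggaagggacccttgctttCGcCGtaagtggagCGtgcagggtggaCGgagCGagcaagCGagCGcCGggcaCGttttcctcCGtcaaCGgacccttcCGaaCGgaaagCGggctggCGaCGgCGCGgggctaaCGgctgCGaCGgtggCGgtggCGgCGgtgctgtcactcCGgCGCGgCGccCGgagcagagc

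Short motifs were searched on both strands of the same window of 300 bases, as a description of letters and not of binding. GGCNGTT, a form of the MYB site, was in 18.9% of risen and 11.8% of fallen promoters, and in 14.1% of all genes called in both and 12.8% of all autosomal protein-coding genes. Among genes called in both that held it, 9.71% rose and 5.98% fell. The E2F form TTGGCGC (8.94% and 5.32%) and the E-box CACGTG (8.85% and 5.82%) leaned the same way, so this lean was not particular to GGCNGTT. The heat shock form GAANNTTC leaned the other way (6.75% and 7.94%). Further motifs were searched that are not given here. A second MYB form, CAGTTG, was in 12.3% of rises and 10.6% of falls, beside 10.3% of genes called in both and 12.1% of all. GTTGCNA, a short site of RFX factors, was in 7.61% of rises and 15.3% of falls, beside 11.1% and 10.5%, and of the genes called in both that held it 4.95% rose and 9.82% fell. These shares crossed with CpG content: among CpG-poor genes 19.0% fell with GTTGCNA and 15.5% without it, among those with a ratio from 0.3 to under 0.6, 10.5% and 5.80%, and among those at 0.6 or more, which held most of the matches, 6.63% and 5.86%. In that last class the median change was 1.55 points with GTTGCNA and 1.20 without it. The shares that rose were 1.94% with GTTGCNA and 4.14% without it among CpG-poor genes. They were 7.22% and 9.58% from 0.3 to under 0.6, and 5.13% and 7.54% at 0.6 or more. For GGCNGTT, 7.47% of CpG-poor genes rose with it and 3.14% without it. From 0.3 to under 0.6 these shares were 13.8% and 8.47%, and at 0.6 or more 9.11% and 7.03%. The shares that fell were 12.1% with GGCNGTT and 16.8% without it among CpG-poor genes. They were 6.55% and 6.46% from 0.3 to under 0.6, and 5% and 6.08% at 0.6 or more. The palindrome TGACGTCA, a cyclic AMP response element, was in 2.19% of rises and 2.92% of falls, beside 3.61% of genes called in both and 2.50% of all. The NRF1 form GCGCANGC was in 23.9% of rises and 18.3% of falls, beside 20.65% and 13.5%, and the GC box GGGCGG in 63.7% and 54.5%, beside 63.1% and 46.3%.

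The windows of 200 bases before the TSS of 3 risen genes with GGCNGTT and of a fallen gene with GTTGCNA are given with the match in capitals, on the strand of the gene, from GRCm38. Cox8c (chr12:102899116-102899315), Pebp4 (chr14:69840220-69840419), Catsperb (chr12:101404453-101404652) and Akap3 (chr6:126852898-126853097) are all on the plus strand. In the first 3 the capitals read AAC at their start because the match is on the other strand.
Cox8c: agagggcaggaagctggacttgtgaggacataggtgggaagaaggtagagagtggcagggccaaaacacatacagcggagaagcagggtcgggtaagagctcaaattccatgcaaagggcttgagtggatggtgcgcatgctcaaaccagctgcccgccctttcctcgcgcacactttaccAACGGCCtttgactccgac
Pebp4: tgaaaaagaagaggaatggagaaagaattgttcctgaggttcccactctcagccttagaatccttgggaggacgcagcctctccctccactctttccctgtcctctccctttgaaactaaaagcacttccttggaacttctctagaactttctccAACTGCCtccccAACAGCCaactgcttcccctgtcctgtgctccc
Catsperb: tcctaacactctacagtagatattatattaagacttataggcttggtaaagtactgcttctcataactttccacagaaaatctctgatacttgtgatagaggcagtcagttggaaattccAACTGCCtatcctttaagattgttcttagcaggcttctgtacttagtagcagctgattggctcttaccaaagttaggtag
Akap3: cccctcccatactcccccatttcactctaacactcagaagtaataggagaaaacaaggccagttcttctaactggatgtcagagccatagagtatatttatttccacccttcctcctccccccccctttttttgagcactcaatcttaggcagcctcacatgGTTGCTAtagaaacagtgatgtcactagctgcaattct

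Of 12 genes for meiotic entry, 10 were called in both lists, and 2 rose and 1 fell, beside 7.23% and 7.15% of all genes called in both lists. Rec8, the meiotic cohesin subunit, fell from 97.3 in LZ to 55.4 in P and stood at 1.28 in D. Dazl, an RNA-binding protein of germ cells, rose from 45.5 to 72.4, and Ythdc2, an RNA helicase needed to enter meiosis, from 61.6 to 89.8. Stra8, the retinoic acid target that opens the meiotic programme, was low in both (24.0 and 15.6). Of 12 genes for double-strand break formation, 10 were called in both lists, with a median change of -12.1 points beside 0.50 over all genes. Among them 1 rose and 1 fell, near the background. They were Rec114, a partner of SPO11 (16.3 to 42.3), and Hells, a chromatin remodeller that works with PRDM9 (84.97 to 56.15). Spo11 itself, which cuts the DNA, had ranks of 58.6 and 52.4, and Prdm9, which places the cuts, 58.9 and 70.5. With summed scores Rec8 changed by 2.05 points, Dazl by -0.70 and Hells by 19.6.

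For strand exchange, 3 of 18 genes fell and 1 rose, beside 7.15% and 7.23% of all genes called in both lists. Among the falls, Dmc1, the meiotic recombinase, went from 58.0 to 26.9 (18.1 in D), from peaks 91 bp apart. Psmc3ip (HOP2), which stimulates DMC1, went from 44.8 to 1.04 with no D call. Mnd1, the partner of HOP2, rose from 50.8 to 79.4 but was at 16.6 in D. With summed scores Dmc1 changed by 13.1 points and Mnd1 by -15.5. Brca2 (98.8 and 96.4), Meiob (93.0 and 90.7) and Palb2 (99.2 and 96.1) kept high ranks. Of the genes for crossover formation, 3 of 15 rose and 0 fell, beside 7.23% and 7.15% of all genes called in both lists. They were Rnf212, a SUMO ligase that marks future crossovers (31.6 to 71.4), Mlh3, an endonuclease subunit of crossover formation (27.0 to 59.0), and Cntd1, a cyclin-like crossover factor (26.8 to 55.4), whose promoter peak is shared with Coa3. Prr19, a crossover factor that works with CNTD1, was lost from rank 17.1. With summed scores Mlh3 changed by -12.0 points. Of 14 genes of the synaptonemal complex, 13 were called in both lists. Among them 1 rose and 1 fell, near the 7.23% and 7.15% of all genes called in both lists. Sycp3, an axis protein, rose from 47.3 to 77.8 and stood at 96.6 in D. Syce2, of the central element, fell from 71.3 to 28.4 with 28.7 in D, from peaks 481 bp apart. Sycp1, the transverse filament, had ranks of 82.8 and 85.1.

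Of 32 replication genes, 30 were called in both lists, 0 rose and 3 fell, 0 were gained and 2 lost, and the median change was -2.05 points. The falls were in the licensing pair Gmnn (geminin, 98.2 to 66.8) and Cdt1 (40.0 to 13.5) and in Gins4 of the replicative helicase (57.9 to 23.5). Mcm10 (rank 38.1) and the clamp loader gene Rfc3 (38.0) were lost, and neither had a D call. Of all genes called in both lists 7.23% rose and 7.15% fell, and of all 20807 genes 3.58% were gained and 3.12% lost, so counts this small are near the background. Ccne1, cyclin E1 of the entry into S phase, fell from 97.6 to 40.9, although it changed by 7.95 points with summed scores. In the list of 23 division genes, which holds Ccne1, 22 were called in both lists. Among these 1 rose and 1 fell, near the same shares, and the median change was -2.87 points. Cdc20, an activator of the anaphase-promoting complex, rose from 37.7 to 63.6 and to 89.5 in D.

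The piRNA pathway silences transposons in germ cells, and 22 of its 24 genes were called in both lists, of which 2 rose and 2 fell, near the 7.23% and 7.15% of all genes called in both lists. Piwil1 (MIWI), the Piwi protein of pachytene piRNAs, rose from 26.6 to 61.9 and reached 98.3 in D. Gpat2, a mitochondrial protein of piRNA biogenesis, rose from 53.3 to 86.4. Tdrd6, a tudor protein of the chromatoid body, was gained at rank 28.7 and stood at 57.9 in D. Kif17, a kinesin, fell from 69.6 to 42.1 and Rnf17, a tudor protein, from 87.9 to 58.6. Gpat2 changed by -8.21 points and Rnf17 by 13.3 with summed scores, and Rnf17 by 1.33 when only the outermost TSS was used. Among 18 regulators of the pachytene and spermatid programme called in both lists, 0 rose and 0 fell, where 7.23% and 7.15% of all genes called in both lists did, which is near the background for so few genes. Mybl1 had ranks of 61.8 and 69.3, Brdt, a testis bromodomain protein, 86.5 and 82.1, Rfx2 9.79 and 11.4, Crem 94.6 and 96.5, and Sox30 42.2 and 37.2. The best peaks of Crem were 26921 bp apart, at different promoters of the gene, and those of Sox30 881 bp apart.

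The 25 genes for the acrosome and fertilization were all called in both lists, with a median rank of 87.7 in LZ and 61.3 in P, and 7 fell while 1 rose, beside 7.15% and 7.23% of all genes called in both lists. A gene above rank 75 cannot rise by 25 points. Among all genes from LZ rank 75 up, 28.0% of CpG-poor promoters fell and 11.8% of those at 0.6 or more. The list was not compared with genes matched on both rank and CpG content, so the part of these in the count was not tested. The falls were Spam1 (98.0 to 59.3), Hyal5, its neighbouring hyaluronidase gene (80.4 to 50.8), Izumo1, the sperm partner of egg JUNO (92.3 to 59.5), Izumo3 (87.7 to 50.9), Eqtn (75.3 to 33.2), Spaca4 (98.6 to 69.9) and Spaca6 (65.99 to 36.5). Zpbp, a zona pellucida-binding protein, rose from 46.2 to 80.6 at peaks that were also the best of Spata48. The median change was only -2.24 points, since others kept their place, such as Acr, the acrosomal protease (93.4 and 97.9), and Acrv1 (92.9 in both). In 6 of the 7 falls the promoter was CpG-poor, as in 11 of the 25 genes. With summed scores 3 fell and 0 rose, and Eqtn, Izumo1, Izumo3 and Spaca4 changed by 4.05, 0.18, 8.43 and 2.10 points. Ranked among all peaks of each list, 0 genes of this list rose or fell. Of the spermatid markers, Odf1 had ranks of 72.5 and 76.9 and Tnp1 of 41.6 and 42.0, Acrv1 is itself a member of the acrosome list, and the part of spermatids in these ranks was not tested.

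In the list of 32 flagellum genes 4 fell and 2 rose, near the 7.15% and 7.23% of all genes called in both lists. Akap3, an anchoring protein of the fibrous sheath, fell from 91.8 to 36.3 (26.1 in D). The tektin genes Tekt2 (82.8 to 27.4) and Tekt5 (53.0 to 18.0), which encode filaments inside microtubules of the axoneme, fell too and had no D call. Oaz3, a testis antizyme, fell from 75.3 to 43.3. Catsperb, a subunit of the sperm calcium channel, rose from 5.91 to 39.5 and to 93.7 in D, and Rsph1, of the radial spoke, from 61.6 to 89.6 and to 95.7. The nuclear proteins of spermatids had no rise or fall among 9 genes called in both.

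Germ-cell forms of metabolic enzymes and transporters had 4 rises and 0 falls among 18 genes called in both lists, beside 7.23% and 7.15% of all genes called in both lists, with a median change of 5.93 points beside 0.50. Cox8c, a testis form of a cytochrome c oxidase subunit, moved from 43.4 to 97.9 and 99.9 in D. Slc2a3 moved from 34.7 to 79.7 and 96.9 in D. Pdha2, the autosomal retrogene of the pyruvate dehydrogenase subunit gene on the X chromosome, moved from 46.1 to 79.7 and 94.5 in D, and the glycerol kinase-like retrogene Gykl1 from 25.4 to 51.9 and 95.1. Pgk2, a retrogene of X-linked phosphoglycerate kinase, had ranks of 72.9, 89.6 and 99.3 in LZ, P and D, and Ldhc 98.9, 95.5 and 95.2. With summed scores 3 rose and 3 fell, Pdha2 by 47.5 points downward. With a peak required over the TSS, or only the outermost TSS used, there were 3 and 4 rises and 2 falls each. Ranked among all peaks of each list, 0 rose or fell.

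**Figure D5:**
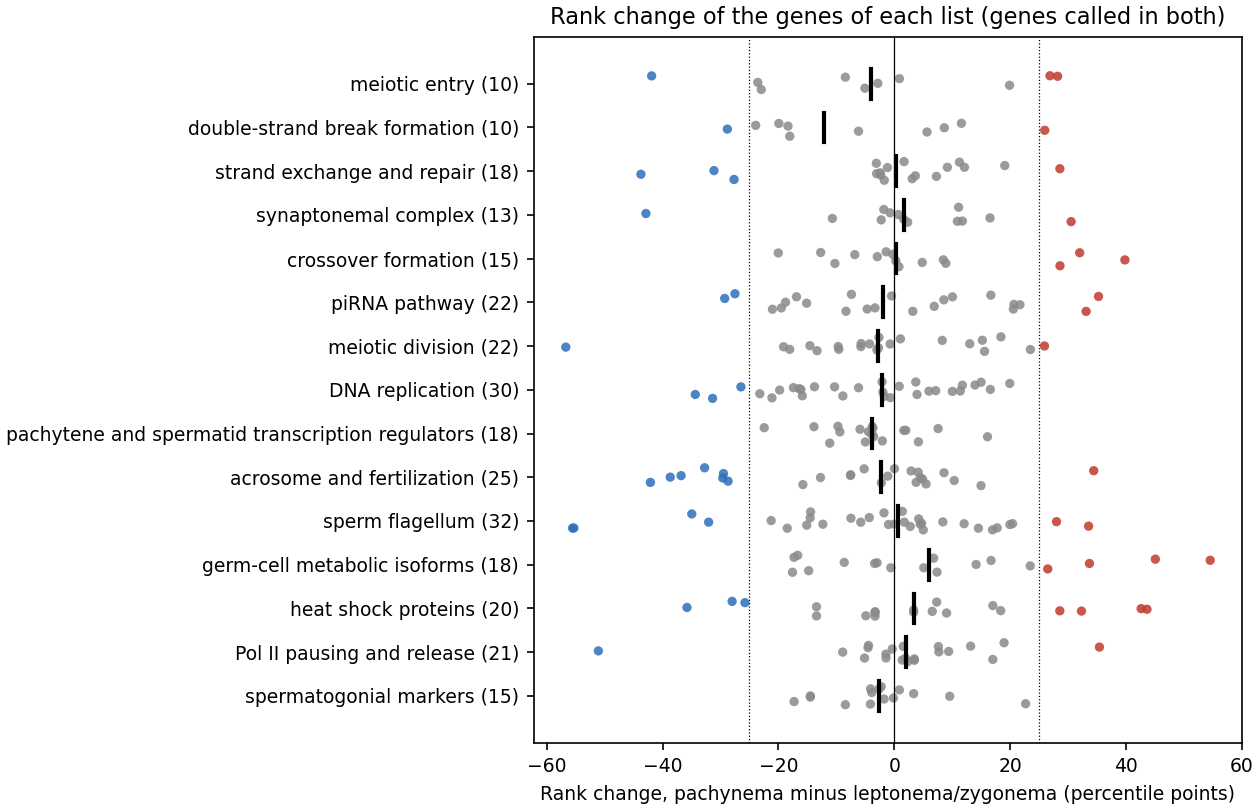
Rank change (x axis, percentile points, pachynema minus leptonema/zygonema) of the genes of 15 lists (y axis, with the number of genes called in both lists in brackets). Each point is a gene, red for a rise and blue for a fall of 25 points or more, vertical jitter carries no value, black bars are list medians and dotted lines mark 25 points. The acrosome list shows 7 falls and 1 rise, the metabolic list 4 rises and no fall.

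Among general factors, Brd2, a bromodomain reader, fell from 91.0 to 39.9, and Ell, an elongation factor subunit, rose from 43.4 to 78.8, out of 21 genes for the pausing and release of RNA polymerase II. The Brd2 peaks were 2501 bp apart, and both were also the best peaks of H2-DMa. The shares over all genes called in both lists were 7.15% for falls and 7.23% for rises. Brd2 changed by 6.06 points when a peak had to cover a TSS and by 5.95 with the outermost TSS, and Ell by -3.81 with summed scores. Cdk9, the kinase that releases paused polymerase, had ranks of 54.8 and 57.2. Of 20 heat shock genes, 4 rose and 3 fell. The rises were Dnaja1 (29.2 to 72.8), Hsph1 (44.7 to 87.3), and the endoplasmic reticulum chaperones Hspa5 (43.7 to 76.0) and Hsp90b1 (51.4 to 79.9). The falls were Hsp90ab1 (70.9 to 42.9), Hspa1b (41.0 to 15.2) and Hspa4l (76.4 to 40.6). The Hspa4l peaks were 37041 bp apart, so its ranks compare different promoters of the gene. Of all genes called in both lists 7.23% rose and 7.15% fell. Hsph1 changed by -7.87 points when a peak had to cover the TSS. Of 21 immediate-early and signal-response genes called in both lists, Egr1 (28.0 to 61.3) and Klf6 (28.1 to 60.5) rose, none fell (7.23% and 7.15% of all genes called in both lists), and Junb was lost from rank 10.9, while Fos (22.9 and 25.9) and Jun (78.8 and 75.6) kept their place. Of 20 spermatogonial genes, 15 were called in both lists with 0 rises and 0 falls, and Ret and Thy1 were gained. Of 32 somatic testis genes, 7 were called in both lists with 0 rises and 0 falls, at median ranks of 13.9 and 14.8, while 5 were gained and 2 lost, beside 3.58% and 3.12% of all genes. Among 22 genes that the study's text discusses, a list chosen with results in view, Sycp3 and the shared promoter of Cntd1 and Coa3 rose and Dmc1 fell.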

How the data were processed

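Per the labels and the study's methods, the authors built leChRO-seq libraries from STAPUT-enriched spermatocytes (4 for each substage), removed duplicates by molecular identifier, trimmed with cutadapt, aligned to mm10 with BWA, merged the libraries of a substage and called peaks with dREG at default settings. The deposited lists hold, for each peak, a dREG score and a p-value under 0.05, and whether the authors adjusted it is not stated. Library depths that the study states were not used here, and without reads behind each peak no precision is given for a score. The pooled lists allow neither replicate spread nor a test.

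Genes and TSSs came from GENCODE M21, sequences from the GRCm38.p6 RefSeq assembly. Scores were ranked within each list over autosomal protein-coding genes with a peak edge under 1000 bp from a TSS. The CpG and motif window ran from 250 bases before to 50 bases from the TSS. Named genes were the 10 largest rises, falls, gained and lost calls, without predicted or clone names, plus members of gene lists, and genes of families named in the closing section were chosen after their values were seen. The members and gene lists were chosen with earlier results of these data known. Alternatives changed the TSS distance, which TSSs, peak filters, list length, shared peaks, score summing, rank reference and threshold. Their effect on CpG-poor promoters and on the acrosome and metabolic lists was added after seeing the data. A few list members are counted but not reported by name here. The ranking code was tested on simulated data. Python 3.11.15, numpy 2.4.6, pandas 2.3.3, pysam 0.24.0 and matplotlib 3.10.9 were used.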

Additional observations from a re-analysis of the deposited data

Results flagged for a closer look

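Diplonema served as a readout beside the comparison and not as part of it. A signal appeared there for 91 genes that had a promoter call in neither LZ nor P (1.23% of 7423 such genes). Their calls were weak, since the highest belonged to Faap100, of the Fanconi anaemia core complex, at D rank 37.15, followed by Cd93 at 27.5 and Parp4 at 26.3. There are no control samples or replicate lists to set these calls against, and their source was not tested.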

How the results depend on the processing

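With pooled lists no library could be left out. No paired analysis was possible because the libraries were merged before peaks were called. The counts of calls, the correlation of ranks and the counts of rises and falls stayed within 1.5 times (0.05 for the correlation) under the alternatives of distance, TSS choice, peak filters, list length and shared peaks. Ranked among all peaks, 535 genes rose and 514 fell, and with a threshold of 10 points 3072 and 2872, which follows from how these are built. Falls of CpG-poor promoters numbered 132 with only the outermost TSS, 125 with summed scores and 115 among all peaks, beside 45, 67 and 71 rises, so their excess over rises was smallest there, and the cause was not tested. The CpG class was not set anew for any alternative, so with the outermost TSS it can belong to another promoter of the gene. For the 74 genes followed by name, 23 values over all alternatives turned direction and 121 more moved by over 10 points. With summed scores 14 of 74 stayed within 10 points, 43 moved and 17 turned, and among all peaks 11 stayed and 63 moved. With a peak over the TSS they were Brd2 (6.06), Hsph1 (-7.87) and Sall3 (-0.39). With a limit of 2000 bp it was Slc12a8 (-1.53). With the outermost TSS they were Brd2 (5.95) and Rnf17 (1.33). With summed scores they were Ankar (-7.39), Ccne1 (7.95), Dazl (-0.70), Dmc1 (13.13), Ell (-3.81), Eqtn (4.05), Gpat2 (-8.21), Hells (19.58), Izumo1 (0.18), Izumo3 (8.43), Mlh3 (-12.04), Mnd1 (-15.50), Pdha2 (-47.46), Rec8 (2.05), Rnf17 (13.32), Slc44a2 (-3.77) and Spaca4 (2.10). A summed score counts peaks as well as their height, so it is another measure of a promoter. The dREG score is not a count of transcripts, and the part of library depth in weak gained and lost calls was not tested.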

Other observations

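Of 27 genes of the Adam family of membrane metalloprotease-like proteins called in both lists, 6 rose and 6 fell, beside 7.23% and 7.15% of all genes called in both lists. The rises were Adam12 (7.58 in LZ to 69.3 in P), Adam2, a subunit of the sperm protein fertilin (23.6 to 61.2), Adam3 (0.31 to 39.15), Adam5 (22.4 to 58.6), Adam30 (11.6 to 40.0) and Adam32 (16.9 to 52.1). Adam2, Adam3, Adam12 and Adam32 stood between 91.6 and 98.4 in D, Adam5 at 80.8 and Adam30 at 13.7. The falls were Adam4 (51.4 to 13.7), Adam10 (87.7 to 51.5), Adam21 (95.8 to 55.8), Adam25, Adam26b and Adam39, and 5 of these 6 promoters were CpG-poor, as were 14 of the 27.

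The nuclear-encoded genes of respiratory complex I and its assembly had 5 rises and 2 falls among 39 called in both lists, and 3 lost calls among 44, beside 7.23% and 7.15% of all genes called in both lists and 3.12% of all genes for losses. Ndufv2, a core subunit, rose from 72.6 to 99.1, while the core subunit genes Ndufs3, Ndufs7 and Ndufs8 lost their calls from ranks 68.3, 47.1 and 15.9. Of 43 proteasome genes called in both lists 3 rose and 2 fell (Psmd8 and Psmg1), near the shares over genes called in both lists, and Psmc5 and Psme1 lost their calls. Psma8, the testis form of a core subunit, was among the rises (34.6 to 66.4, with 91.4 in D). Ribosomal protein genes had 1 rise and 3 falls among 70. Solute carrier genes had 23 gained and 12 lost calls among 358, and Hox genes 5 gained and 1 lost among 39, of which Hoxc5 was the highest at rank 22.5. Over all genes 3.58% gained and 3.12% lost a call. These families were picked out after their values were seen.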
